A study of Mus musculus with 21 samples.

Results

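The proximal tubule recovers phosphate, glucose, lactate, sulfate, dicarboxylates and amino acids from the glomerular filtrate, and 9 of the genes that encode the carriers for this work were followed across 21 libraries of mouse neutrophils (PMNs) and renal tubular epithelial cells (TECs). The genes were named one by one: Slc34a1, Slc34a3, Slc5a2, Slc5a12, Slc13a1, Slc13a3, Slc6a19, Slc3a1 and Slc7a9, 9 of 54123 genes with a transcript in the files. For each, the estimated reads of all transcripts and of both files of a library were added, and all 9 passed the filter on low counts in each cell type. Cells came from wildtype mice, described in the study's methods as male C57BL/6 mice aged 8 to 12 weeks, 24 h after sham surgery or after ischemia-reperfusion injury (IRI), in which both renal pedicles were clamped for 32 min. Mice had remote ischemic preconditioning (RIPC), 3 inflations of a hind-limb cuff of 5 min each, or control treatment. TECs were taken from the kidney, and no group carries a transgene. The study's methods do not name the tissue from which the sequenced PMNs were taken. The TEC libraries comprised 3 after sham surgery with control treatment, 3 after sham surgery with RIPC, 2 after IRI with control treatment and 3 after IRI with RIPC. The PMN libraries comprised 2, 3, 2 and 3 in the same order. A legend of the study calls the libraries of a group biological replicates, but the labels do not tie libraries to animals, so p-values measure the spread between these libraries.

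Solute uptake across the brush border runs downhill on the sodium gradient that the basolateral sodium pump maintains. Most of the filtered glucose, phosphate and amino acids is reabsorbed in the early proximal tubule, and loss of several of these carriers is known to waste the solute in urine. Not every carrier of the set sits in the brush border or moves sodium: Slc13a3 is known as a basolateral carrier, and the Slc3a1/Slc7a9 pair exchanges amino acids without sodium.

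The phosphate carriers are Slc34a1 (NaPi-IIa; chr13:55398187-55415592, plus strand, GRCm38) and Slc34a3 (NaPi-IIc; chr2:25228898-25234364, minus strand). Slc5a2 (chr7:128265657-128272430, plus strand) encodes SGLT2, the main glucose carrier of the early proximal tubule, and Slc5a12 (chr2:110597298-110647779, plus strand) encodes a sodium-coupled carrier of lactate and other monocarboxylates. Slc13a1 (chr6:24088283-24168092, minus strand) encodes the sulfate carrier NaS1, and Slc13a3 (chr2:165405028-165473230, minus strand) the dicarboxylate carrier NaDC3. Slc6a19 (chr13:73679745-73704865, minus strand) encodes the neutral amino acid carrier B0AT1. Slc3a1 (chr17:85028376-85064236, plus strand) and Slc7a9 (chr7:35448796-35466036, plus strand) encode the heavy and light subunits of the exchanger for cystine and basic amino acids that is defective in cystinuria.

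Promoter sequences of RefSeq (GRCm38.p6) were at hand for 6 of the 9 genes, with 7 promoters in all. They are shown for the genes whose 250 bases before the start held a match to a motif of HNF1 or HNF4, factors known to drive proximal tubule genes. The window of Slc34a1 (chr13:55399398-55399647, plus strand) holds the HNF1 half-site GTTAAT on each strand, at 89 to 84 and at 61 to 56 bases before the start. This window lies inside the span of the gene, which begins at 55398187, so the start it precedes is an internal one. The window of Slc3a1 (chr17:85028097-85028346, plus strand) holds the HNF4 motif CAAAGTCCA at 39 to 31 bases before the start. Capitals mark the matches.
Slc34a1: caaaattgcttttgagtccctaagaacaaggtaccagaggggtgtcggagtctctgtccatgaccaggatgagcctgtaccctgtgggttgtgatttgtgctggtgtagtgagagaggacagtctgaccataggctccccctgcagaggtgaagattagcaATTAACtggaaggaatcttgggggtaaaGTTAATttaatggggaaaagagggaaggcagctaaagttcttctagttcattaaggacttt
Slc3a1: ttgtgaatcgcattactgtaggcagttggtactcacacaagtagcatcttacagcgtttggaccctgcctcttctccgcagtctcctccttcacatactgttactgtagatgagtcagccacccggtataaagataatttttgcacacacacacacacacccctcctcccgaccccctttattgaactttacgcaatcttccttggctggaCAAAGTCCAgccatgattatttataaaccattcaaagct
Searched on both strands, GTTAAT was present in 6.43% of the 32851 RefSeq promoter windows, CAAAGTCCA in 0.384% and the full HNF1 palindrome, which contains the half-site, in 0.00913%. The palindrome was in none of the 7 windows of the set. Of the factors themselves, Hnf4a had a mean of 171 ± 71.9 normalized counts in sham TECs (SD, n = 6) and 50.3 ± 39.2 after IRI (SD, n = 5), and its difference did not pass the test (log2 fold change -1.74, SE 0.48, adjusted p = 0.101, edgeR).

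Each PMN library held between 20881334 and 30507235 reads and each TEC library between 21479605 and 51624602. The TEC label was checked with 14 proximal tubule markers, which together reached 21050 to 31004 CPM of all reads, the scale of every sum over a marker list, in sham TECs and 3087 to 9127 after IRI. The 13 neutrophil markers summed to between 1.34 and 112 CPM in TECs, where Ly6g, which marks neutrophils, had no read in the 6 sham libraries, and to between 6217 and 31533 in PMNs. In the PMN libraries the 9 carriers summed to 165 to 1939 and 8 macrophage markers to 3066 to 10653 CPM. Among PMNs, the second sham control library was highest for the carriers (1939) and for markers of the thick limb, distal tubule and collecting duct (5014 CPM). Among TECs, the third IRI RIPC library stood apart from the other IRI libraries and the first sham control library from the other sham libraries. They held 80.2 and 82.8 normalized counts, respectively, of Havcr1 (KIM-1), the classical marker of tubular injury, whereas the other IRI libraries held 400 to 727 and the other sham libraries 0 to 1.07. Normalized counts are CPM over the tested genes, scaled by TMM within TECs and within PMNs.

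**Figure D1:**
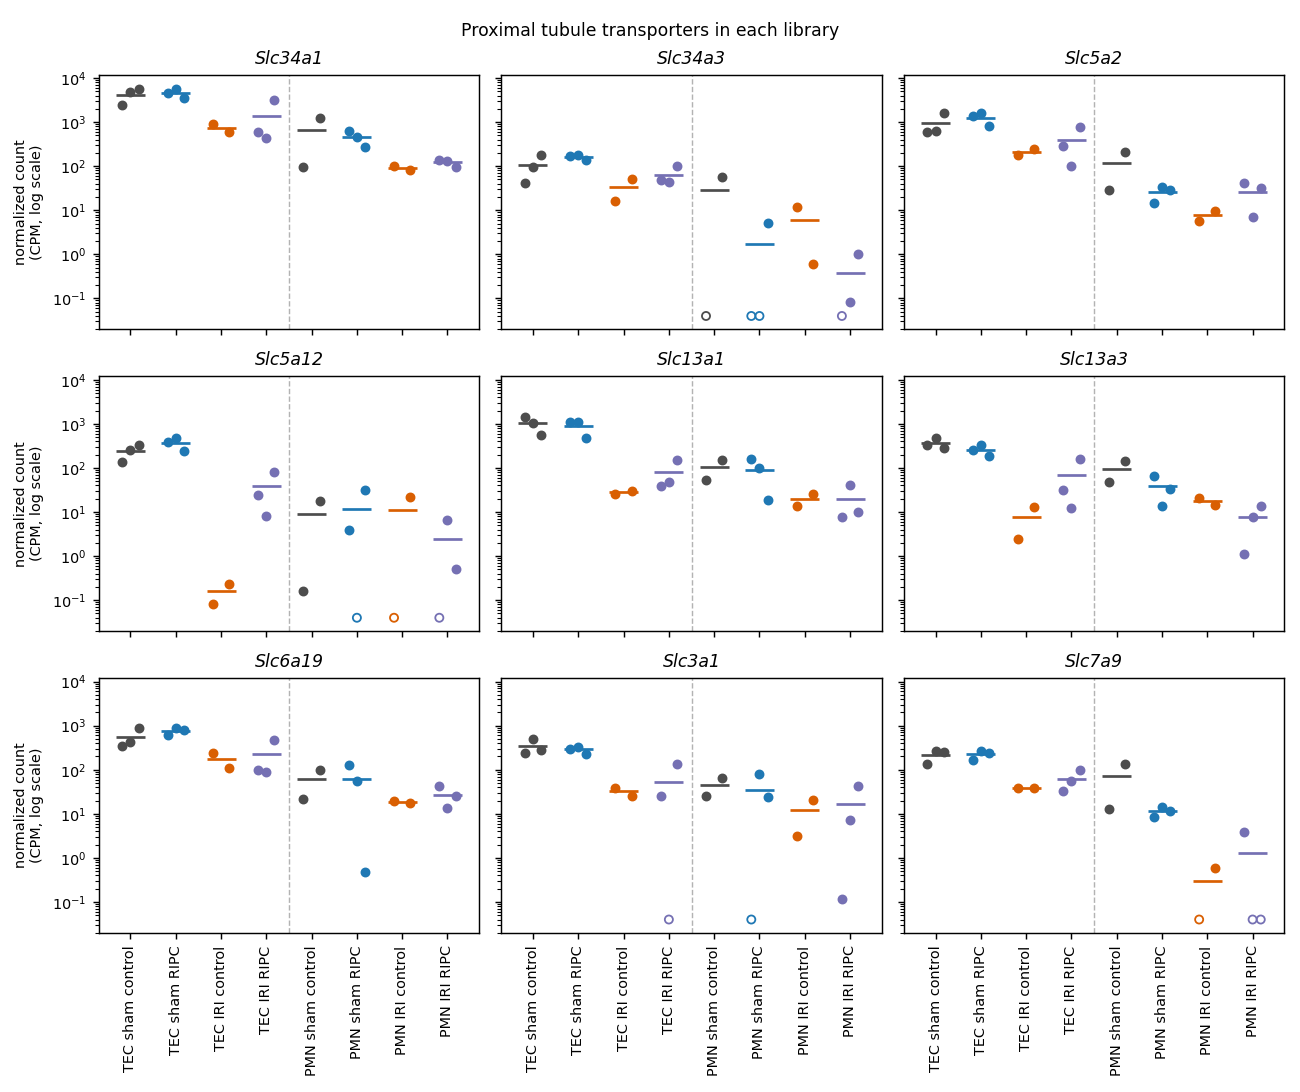
Normalized counts (CPM, log scale) of the 9 carriers in each library; points are libraries, bars are group means, colours are treatment groups, and open points at the bottom are libraries with 0 reads. TECs (left of the dashed line) and PMNs were scaled separately. Slc5a12 in TECs after IRI without RIPC lies at 0.08 and 0.24, below the other TEC groups.

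By mean level, the phosphate carrier Slc34a1 and the glucose carrier Slc5a2 led the order of abundance. Per length, Slc34a1 was the most abundant of the 9 in TECs after sham surgery, with a mean of 948 ± 318 TPM (SD, n = 6), and it lay above the next carrier in 6 of 6 libraries. Slc5a2 followed at 357 ± 182 TPM and Slc13a1 at 180 ± 55.2 TPM (SD, n = 6). These neighbours were not separated by their spread, since Slc5a2 was above Slc13a1 in 4 of 6 libraries. Slc13a1 was above Slc7a9 (64.0 ± 17.9 TPM) in 6 of 6 libraries. The remaining carriers lay close together: Slc3a1 at 60.1 TPM, Slc5a12 at 60.0, Slc6a19 at 55.3, Slc13a3 at 49.7 and Slc34a3 at 46.9, and neighbours among them were in the order of their means in 2 to 4 of 6 libraries.

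After IRI the level per length of Slc34a1 averaged 192 ± 163 TPM and that of Slc5a2 75.1 ± 52.3 TPM (SD, n = 5), still the first and second of the set in 5 of 5 libraries. By mean level Slc34a3 was last after sham surgery and the third after IRI, at 17.9 ± 7.30 TPM, but Slc13a3 lay above it in 2 of 6 sham libraries, and it lay above Slc6a19, the next after IRI, in 3 of 5. Slc5a12 had the lowest mean, with 4.97 ± 5.67 TPM. As a share of the summed TPM of the 9 carriers, Slc34a1 made up 51.3 ± 4.74% after sham surgery and 53.7 ± 8.33% after IRI. The share of Slc13a1 was 11.3 ± 7.26% and 3.10 ± 1.13%, and that of Slc34a3 2.43 ± 0.861% and 6.35 ± 3.12%, in the same order. All 9 carriers together took 0.605 ± 0.133% of the reads of sham TECs (SD, n = 6) and 0.145 ± 0.110% after IRI (SD, n = 5).

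The first comparison asked what IRI did to these genes in TECs at 24 h, averaged over RIPC and control treatment. Of the 9 carriers, 5 fell (Slc5a12, Slc13a1, Slc13a3, Slc7a9 and Slc34a1), none rose, and the other 4 also had negative log2 fold changes without passing the test. Among all 25917 genes tested, 1.15% passed the test with a lower level. The median log2 fold change was -2.18 over the 9 carriers, 0.15 over all genes tested and -0.32 over the 4356 genes tested with an average log2 CPM above 5. Reads of other cells also differed: the neutrophil markers summed to 1.34 to 30.1 CPM in sham TECs and 34.4 to 112 after IRI, 8 macrophage markers to 2.68 to 63.5 and 76.9 to 199, and 5 erythrocyte markers to 4.49 to 573 and 80.3 to 808. None of the tested genes of these lists passed the test (8, 7 and 4 genes), and their part in the result was not tested. In these bulk samples, fewer proximal tubule cells and less of the RNA per cell cannot be told apart.

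The monocarboxylate carrier Slc5a12 changed most. In sham TECs it had 133, 250 and 333 normalized counts with control treatment and 397, 482 and 248 with RIPC. After IRI it had 0.08 and 0.24 with control treatment, which were 2 and 5 reads, and 24.2, 8.07 and 82.8 with RIPC. No IRI library reached the lowest sham library. The log2 fold change was -6.91 (SE 0.76, adjusted p = 0.00184, edgeR), the second smallest p-value of 25917 genes.

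The sulfate carrier Slc13a1 fell by 4.34 on the log2 scale (SE 0.51, adjusted p = 0.00206, edgeR), from between 488 and 1436 normalized counts in the 6 sham libraries to between 26.2 and 152 in the 5 IRI libraries. The lowest sham library lay above the highest IRI library. The related dicarboxylate carrier Slc13a3 fell by 3.72 (SE 0.70, adjusted p = 0.0197, edgeR). It had 190 to 468 normalized counts in sham TECs, with a mean of 310 ± 94.1 (SD, n = 6). After IRI it had 2.43 and 13.3 with control treatment and 30.9, 12.2 and 160 with RIPC, again without overlap.

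Of the phosphate carriers, Slc34a1 fell by 2.09 (SE 0.48, adjusted p = 0.0483, edgeR). Its sham libraries held 2435, 4697 and 5526 normalized counts with control treatment and 4509, 5541 and 3488 with RIPC. Its IRI libraries held 899.9 and 589 with control treatment and 588, 432 and 3191 with RIPC. The groups overlapped through the third IRI RIPC library, which lay above the first sham control library. Slc34a3 had 40.7 to 183 normalized counts after sham surgery and 16.0 to 98.6 after IRI, and its log2 fold change of -1.52 did not pass the test (SE 0.51, adjusted p = 0.187, edgeR).

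The glucose carrier Slc5a2 had 606 to 1609 normalized counts after sham surgery and 103 to 759 after IRI, with a log2 fold change of -1.95 (SE 0.49, adjusted p = 0.0702, edgeR). Only the third IRI RIPC library, at 759, reached into the sham range.

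Among the amino acid carriers, Slc7a9 fell by 2.18 (SE 0.43, adjusted p = 0.0233, edgeR), from 132 to 269 normalized counts in sham libraries to 32.3 to 98.1 in IRI libraries. Its partner Slc3a1 had 227 to 505 normalized counts after sham surgery and 39.0, 25.5, 24.8, 0 and 137 after IRI, also without overlap. The fitted log2 fold change of Slc3a1 was larger, -2.90, but its error was wide (SE 1.06, adjusted p = 0.232, edgeR), with one IRI RIPC library at 0 reads. Slc6a19 had 351 to 888 normalized counts after sham surgery and 90.7 to 474 after IRI (log2 fold change -1.72, SE 0.49, adjusted p = 0.115, edgeR).

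Libraries of the 2 conditions did not overlap for 5 of the 9 carriers, all lower after IRI: Slc5a12, Slc13a1, Slc13a3, Slc3a1 and Slc7a9. Of all genes tested, 3.16% had all IRI libraries below all sham libraries. Slc5a12 and Slc13a1 passed the test in each of the 21 alternative analyses and Slc13a3 in 19. Slc34a1 missed the threshold in 9 of the 21 and Slc7a9 in 7. With 1 sham library left out, 2 or 3 carriers passed, except that 5 did without the first sham control library. Without the third IRI RIPC library, 7 carriers passed the test (Slc5a2 and Slc6a19 in addition), and the log2 fold change was -2.81 for Slc34a1, -4.55 for Slc13a3 and -3.97 for Slc3a1.

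**Figure D2:**
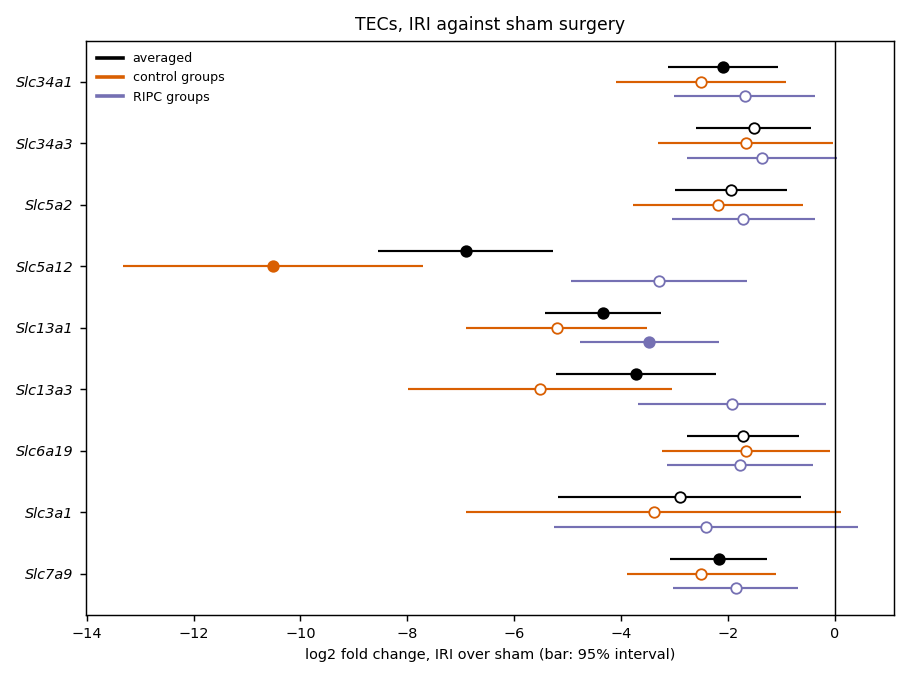
Log2 fold change of each carrier in TECs, IRI over sham surgery, with its 95% interval, averaged over RIPC and control treatment (black), in the control groups (orange) and in the RIPC groups (purple); filled points passed the test (adjusted p under 0.05, edgeR). All points lie below 0, from -10.52 for Slc5a12 in the control groups to -1.37 for Slc34a3 in the RIPC groups.

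Taken apart by treatment, the control groups (2 IRI against 3 sham libraries) gave 1 call among all 25917 genes, and this gene was Slc5a12 (log2 fold change -10.52, SE 1.31, adjusted p = 0.0283, edgeR). The share of genes called was 0.00386%, and 2226 genes had an unadjusted p under 0.05. Its level was 239 ± 100.4 normalized counts in sham controls (SD, n = 3) and 0.160 ± 0.111 in IRI controls (SD, n = 2). The 2 files of a library differ by less than counting noise, so the count was also read from the first file of each: 4 reads in both libraries together, with a 95% Poisson interval of 1.09 to 10.2. The sham control mean was 1364 times this level, with a counting interval of 533 to 5004 that covers the counting error of those 4 reads only. Slc13a1 and Slc13a3 had log2 fold changes of -5.20 (adjusted p = 0.0576, edgeR) and -5.51 (adjusted p = 0.136, edgeR). The call of Slc5a12 was lost without sham control library 2 or 3 or without sham RIPC library 1 or 3, with 0 genes called in each case.

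In the RIPC groups (3 IRI against 3 sham libraries) Slc13a1 was the carrier that fell, by 3.48 (SE 0.61, adjusted p = 0.0487, edgeR), where 0.081% of all genes were called lower. Slc5a12 had a log2 fold change of -3.29 (SE 0.77, adjusted p = 0.149, edgeR). All 9 carriers had IRI libraries below all sham libraries in the RIPC groups, and 8 did in the control groups, the exception being Slc34a3. Such separation was seen in 9.9% of all genes tested in the RIPC groups and in 9.57% in the control groups. Without the third IRI RIPC library, 4 carriers were called in the RIPC groups (Slc34a1, Slc5a12, Slc13a1 and Slc6a19). Without either of the other IRI RIPC libraries, or any one sham library other than the first sham control, Slc13a1 lost its call.

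Next, RIPC was compared with control treatment. After sham surgery none of the 9 carriers passed the test in TECs, and neither did any other gene (0% of 25917 called by edgeR, with 1175 genes at an unadjusted p under 0.05, against 430 called by the Wald test of DESeq2 and 62 by apeglm, none of them a carrier). The log2 fold changes ran from -0.48 for Slc13a3 to 0.65 for Slc5a12. The 95% intervals were wide enough to hold changes in either direction, for example -1.19 to 1.38 for Slc34a1, -0.90 to 1.72 for Slc5a2 and -1.39 to 0.97 for Slc13a1. With Slc3a1 the interval ran from -2.93 to 2.47.

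After IRI all 9 carriers had positive log2 fold changes for RIPC (3 libraries) over control treatment (2 libraries), but none passed the test, and 1 gene, which was lower, did so among all tested (0.00386%, 1128 genes with an unadjusted p under 0.05). Slc5a12 again stood first, with a log2 fold change of 7.88 (SE 1.19, adjusted p = 0.0542, edgeR), the fourth smallest p-value of 25917. It passed by the Wald test of DESeq2, by apeglm, and by edgeR without the first or the second IRI RIPC library. Of 23 alternative analyses, 9 called it. In the rest, its adjusted p by edgeR rose to as much as 0.342 with 1 library left out and 0.919 under other settings. Its 3 RIPC libraries held 620, 176 and 1753 reads against 2 and 5 in the control libraries. Slc13a1 was the other carrier without overlap, with 39.9, 47.2 and 152 normalized counts against 26.2 and 29.3 (log2 fold change 1.52, SE 0.65, adjusted p = 0.778, edgeR). Such separation upward was seen in 7.76% of all genes tested. Slc13a3 had a log2 fold change of 3.10 (SE 1.02, adjusted p = 0.778, edgeR), with the libraries of the groups overlapping.

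Much of this difference rested on the third IRI RIPC library, which held 5152 normalized counts of the 9 carriers together, against 1184 and 791 in the other IRI RIPC libraries and 1441 and 1097 in the IRI controls. Without it, 5 carriers were higher and 4 lower with RIPC (Slc34a1 at -0.52, Slc5a2 at -0.06, Slc6a19 at -0.85 and Slc3a1 at -1.37), and Slc13a1 and Slc13a3 dropped to 0.68 and 1.47. Slc5a12 kept a log2 fold change of 6.65 without it (adjusted p = 0.0572, edgeR). In the same library the 9 markers of tubular injury summed to 3963 CPM, against 10378 to 18475 in the other IRI libraries. The part of this library's lower injury markers in the difference was not tested. Whether surgery altered the effect of RIPC was tested as an interaction, in which no carrier and no other gene passed (0% by edgeR, 1869 genes with an unadjusted p under 0.05, 600 genes and 1 carrier by the Wald test of DESeq2). Slc5a12 had the largest interaction of the set at 7.23 (SE 1.28, adjusted p = 0.304, edgeR).

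**Figure D3:**
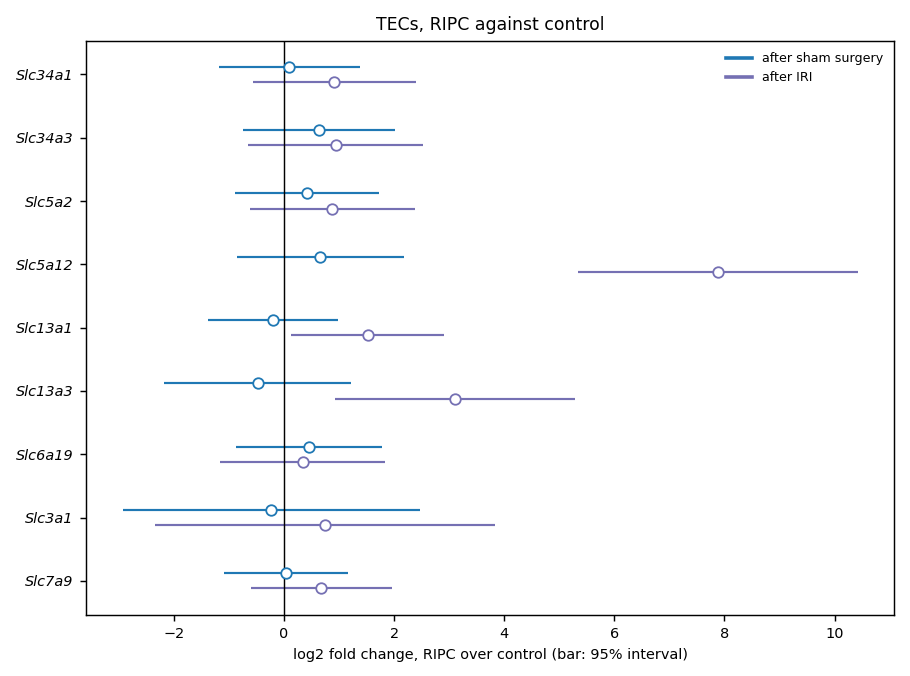
Log2 fold change of each carrier in TECs, RIPC over control treatment, with its 95% interval, after sham surgery (blue) and after IRI (purple); open points did not pass the test (adjusted p under 0.05, edgeR). After sham surgery all intervals include 0, and after IRI those of Slc5a12, Slc13a1 and Slc13a3 lie above 0.

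**Figure D4:**
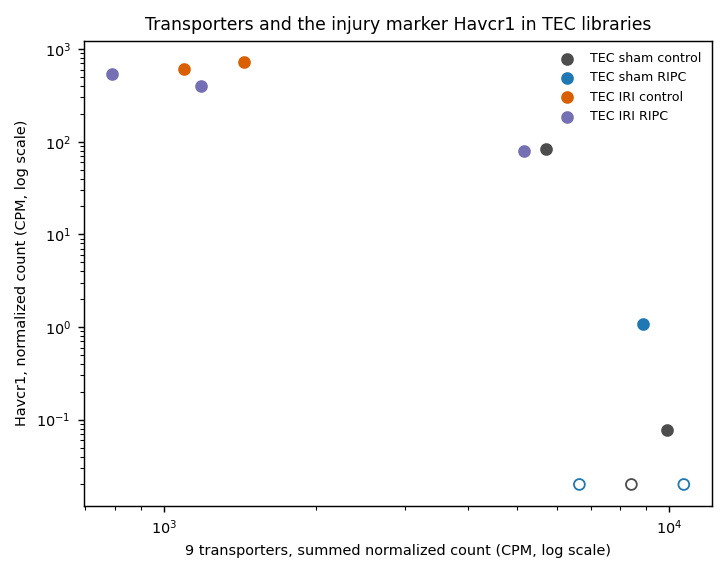
Normalized count of Havcr1 (vertical axis, CPM, log scale) against the summed normalized count of the 9 carriers (horizontal axis, CPM, log scale) in the 11 TEC libraries, coloured by group; open points at the bottom had 0 reads of Havcr1. The third IRI RIPC library (5152 and 80.2) lies beside the first sham control library (5705 and 82.8), between the other sham and the other IRI libraries.

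Of 24 other apical carriers, 23 were tested and 7 fell after IRI in TECs, with none rising, and the median log2 fold change of the list was -2.53. Among the 4 with the smallest adjusted p, Slc5a10, a sodium-coupled carrier of mannose and fructose, fell by 4.27 (SE 0.64, adjusted p = 0.00671, edgeR), from 130 to 788 normalized counts to 3.35 to 19.8. Slc1a1, which carries glutamate and aspartate, fell by 2.89 (SE 0.51, adjusted p = 0.0138, edgeR). Slc5a8, a high-affinity carrier of lactate and other monocarboxylates, fell by 2.79 (SE 0.54, adjusted p = 0.0222, edgeR) and the ascorbate carrier Slc23a1 by 3.16 (SE 0.63, adjusted p = 0.0254, edgeR). For each of these genes the IRI libraries lay below all sham libraries.

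On the basolateral side, where glucose, amino acids and bicarbonate leave the cell and the sodium pump works, none of 13 genes passed the test. The median log2 fold change of this list was -1.59, 12 of 13 values were negative, and 11 had an unadjusted p under 0.05, as did 15% of all genes tested. The share called lower among all genes tested was 1.15%, as above.

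Of the partners, scaffolds and hormone receptors of the carriers, 10 of 12 were tested and 4 fell. Pdzk1, a scaffold that binds Slc34a1 at the brush border, fell by 3.53 (SE 0.66, adjusted p = 0.0186, edgeR), from 763 to 2370 normalized counts in sham TECs to 52.0 to 623 after IRI. Its interacting protein gene Pdzk1ip1 fell by 2.10 (SE 0.42, adjusted p = 0.0252, edgeR). The 2 receptors that lower phosphate uptake also fell: Pth1r, the receptor of parathyroid hormone, by 3.02 (SE 0.59, adjusted p = 0.022, edgeR), while Kl, the coreceptor of FGF23, fell by 4.47 (SE 0.68, adjusted p = 0.00692, edgeR). The other genes of the list were left out of the tests and are not reported here.

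Other nephron segments and injury genes were measured in the same fit. Of 14 proximal tubule markers 7 fell and of 5 markers of the S3 segment 1 fell, against 1.15% of all genes tested. Of 10 markers of the thick limb, distal tubule and collecting duct none passed the test (median log2 fold change -0.74), and of 9 tubular injury genes 2 rose, against 0.255% of all genes tested. Among the latter, Krt20 rose by 10.24 (SE 1.44, adjusted p = 0.00466, edgeR), from 0 to 16.7 normalized counts in sham TECs to 414 to 1491 after IRI, and Havcr1 had a log2 fold change of 7.23 (adjusted p = 0.0536, edgeR). Prom1, which encodes the surface protein prominin-1, had 73.2 ± 41.4 normalized counts after sham surgery (SD, n = 6) and 48.8 ± 41.2 after IRI (SD, n = 5).

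Across the 11 TEC libraries the 9 carriers moved together. The 36 pairwise Pearson correlations of log2 CPM ran from 0.588 to 0.961 with a median of 0.864, a description that shares libraries and the gap between sham and IRI. The genes whose log2 CPM followed the mean of the carriers most closely over the 11 libraries were Nicn1 (r = 0.991), Lpar3 (0.983), Gmpr2 (0.982), the proton-coupled organic cation exchanger Slc47a1 (0.980) and Nanp (0.979). Slc47a1 had 219 to 650 normalized counts in sham TECs and 58.8 to 269 after IRI.

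The carriers are known from renal and intestinal epithelium, and each PMN library held reads of some of them. Slc34a1 was the most abundant of the 9 per length, with 2233 to 25975 reads. In sham PMNs it had 95.9 and 1208 normalized counts with control treatment and 625.4, 462 and 266 with RIPC, and in IRI PMNs 99.97, 84.1, 138, 134 and 94.1. All 9 carriers had lower fitted levels after IRI in PMNs (median log2 fold change -2.21, against -0.01 over all genes tested), but none passed the test (5 had an unadjusted p under 0.05, against 11.8% of all genes, and 3 passed by the Wald test of DESeq2), while 0.416% of 25002 genes did. The smallest adjusted p was that of Slc34a1 (log2 fold change -2.36, SE 0.61, adjusted p = 0.203, edgeR). Slc7a9 was the 1 carrier of 9 without overlap, with 8.48 to 133 normalized counts after sham surgery and 0 to 3.96 after IRI. Of all genes tested in PMNs, 2.08% were separated downward in this way.

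The other PMN comparisons had no carrier past the test: IRI against sham surgery in the control groups (0 genes called, 1113 with an unadjusted p under 0.05) and in the RIPC groups (62 called, 0.248%), RIPC against control after sham surgery (1 called, 0.004%) and after IRI (0 called, 680 with an unadjusted p under 0.05), and the interaction (0 called, 1434 with an unadjusted p under 0.05). In the same order, the Wald test of DESeq2 called 732, 1662, 817, 426 and 657 genes and 1, 0, 0, 0 and 0 carriers. With many values near 0, the standard errors of Slc34a3, Slc5a12 and Slc7a9 exceeded 2 on the log2 scale in each of these comparisons. The 14 proximal tubule markers summed to 1175 to 7522 CPM in sham PMNs and to 372 to 961 after IRI, without overlap. Umod, a gene of the thick limb, had 31.5 to 4330 normalized counts in sham PMNs and 24.3 to 425 after IRI. The part of tubular RNA from other cells in these PMN values was not tested.

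In a fit of all 21 libraries, TECs exceeded PMNs after sham surgery for all 9 carriers, and 3 passed the test: Slc5a2 by 4.18 (SE 0.71, adjusted p = 0.00152, edgeR), Slc34a1 by 2.87 (SE 0.60, adjusted p = 0.00974, edgeR) and Slc13a1 by 3.16 (SE 0.67, adjusted p = 0.0108, edgeR). Of all 31769 genes tested, 1.13% were called higher in TECs. Without the second sham control, the third sham RIPC or either IRI control PMN library, 5 carriers passed. After IRI 3 carriers were higher in TECs, Slc5a2 by 4.20 (SE 0.72, adjusted p = 0.00217, edgeR), Slc34a1 by 3.16 (SE 0.62, adjusted p = 0.00649, edgeR) and Slc7a9 by 6.14 (SE 1.43, adjusted p = 0.0209, edgeR), with 1.17% of all genes called higher. Without either sham control PMN library 5 carriers passed. In the fit of all 21 libraries, Slc5a12 had a log2 difference of -1.16 after IRI, with an interval of -4.33 to 2.01. The effect of surgery did not pass the test of a difference between TECs and PMNs for any carrier or gene (0% by edgeR, 3102 genes with an unadjusted p under 0.05, 2395 genes and 1 carrier by the Wald test of DESeq2). The largest such difference among the carriers was that of Slc5a12 (-5.88, SE 2.26, adjusted p = 0.365, edgeR).

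For 8 of the 9 carriers the reads came from several annotated transcripts. Pooled over TEC libraries, the main coding transcript took 94.6% of the reads of Slc5a2, 92.6% of Slc5a12, 92.5% of Slc34a3, 88.5% of Slc13a1, 84.1% of Slc34a1 and 70.6% of Slc7a9. Slc3a1 has 1 transcript, and the reads of Slc13a3 were split between its coding transcripts (55.1% and 44.9%). In single libraries these shares ran from 91.7 to 100% for Slc5a2, 84.4 to 97.4% for Slc34a3, 78.3 to 93.7% for Slc34a1 and 58.8 to 100% for Slc7a9, but from 17.3 to 96.1% for Slc13a1 and from 0 to 94.7% for Slc5a12. For Slc6a19 the coding transcript took 67.9% overall and between 0 and 99.7% in single libraries, with most of the remainder in noncoding transcripts of the gene. Some carriers overlap other genes: Pfn3 lies within the span of Slc34a1, BC017158 overlaps Slc5a2, Prepl overlaps Slc3a1, Slc6a19os and Gm14437 are antisense to Slc6a19 and Slc13a3, and the pseudogene Gm20706 lies on the strand of Slc13a1. Since the strand setting of the counting is not given in the sources used here, reads of such pairs cannot be told apart.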

How the data were processed

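RNA of sorted PMNs and TECs was reverse transcribed from poly(A) with template switching, amplified as cDNA and sequenced as single-end reads of 50 bases. Per the labels, the authors trimmed reads with Trim Galore 0.6.4, and quantified them with Salmon 1.0.0 for mm10. FastQC and MultiQC are also named, as is DESeq2 for tests. The authors deposited 2 files for each of 21 libraries, with estimated counts and TPM per transcript for 140748 transcripts. Total reads differed between the 2 files of a library by -0.178 to 0.492%, and their median chi-square over genes with at least 100 reads was 0.0106 to 0.0483, where independent counts give 0.455. The files are therefore not independent counts: they were added, counted as 1 library, and intervals and the floor of 3 reads cover counting error only.

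Transcripts were assigned to genes with Gencode M21 (GRCm38). Of these, 884 transcripts did not match (0.139 to 0.255% of reads). Gene sums were rounded to whole numbers. Genes of the sex chromosomes and mitochondria were left out of tests, and filterByExpr (minimum count 10) was applied. Quasi-likelihood tests of edgeR 4.0.16 with TMM scaling were fitted in TECs (25917 genes), PMNs (25002 genes) and all libraries (31769 genes), with p-values adjusted over all genes tested by Benjamini and Hochberg (threshold 0.05). The fits within TECs and PMNs were tested on counts simulated from these libraries. Changed genes that were called had the right sign, but in TECs the share of false calls was above the nominal 0.05, so that calls with an adjusted p close to the threshold, such as Slc34a1 after IRI and Slc13a1 in the RIPC groups, are less certain than their p states. Alternatives covered scaling, filters, single files, length offsets, included genes, robust dispersions, the replicate number as a block, left-out libraries, and DESeq2 1.42.0 with Wald tests or apeglm 1.24.0 (s under 0.01). TPM was recomputed from the summed reads and effective lengths. The carriers and lists were chosen with earlier results of these data known. All carriers were named, as were up to 4 called genes with the smallest adjusted p of each list of other carriers and partners, the 5 genes closest to the carriers' mean, and markers that check a label or move with a group. R 4.3.3 and Python 3.11.15 were used.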

Additional observations from a re-analysis of the deposited data

Results flagged for a closer look

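Of 36 sets of libraries, 4 by carrier, 9 had a highest library far from the others by Dixon's criterion at 95%. Chance alone also gives some such sets. Their number was not estimated, since the carriers share libraries and the counts were not log-transformed. The third IRI RIPC library of TECs was the highest of 5 IRI libraries for Slc34a1 (3190.74 normalized counts, nearest 899.9), Slc13a1 (151.774, nearest 47.2), Slc13a3 (160.318, nearest 30.9) and Slc3a1 (136.95, nearest 39.0). The second sham control library of PMNs was the highest of 5 sham libraries for Slc34a3 (58.2609, nearest 5.13), Slc5a2 (208.121, nearest 33.8) and Slc7a9 (132.517, nearest 14.2). Among the 5 IRI libraries of PMNs, the first control library was highest for Slc34a3 (11.7349, nearest 1.04) and the first RIPC library for Slc7a9 (3.96245, nearest 0.603).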

How the results depend on the processing

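Counts of carriers called were set against each alternative. In TECs, IRI against sham surgery averaged over treatments, 5 became 2 to 7 with 1 library left out (92 to 714 genes called in all) and 8 with no filter on low counts, and 7 by the Wald test of DESeq2. In the control groups, 1 became 0 to 4 with 1 library left out, 2 with size factors of DESeq2, 6 with no filter, 0 with the second file alone, 2 with a length offset, 2 with robust dispersions, 2 with the replicate block, 0 in a fit to the compared groups alone, 4 by the Wald test and 6 by apeglm. In the RIPC groups, 1 became 0 to 4 with 1 library left out, 6 with no filter, 3 by the Wald test and 3 by apeglm, and 0 with size factors of DESeq2, with a minimum count of 50, with sex-chromosome and mitochondrial genes, and in a fit to the compared groups alone. For RIPC against control after IRI, 0 became 0 to 1 with 1 library left out, 2 with no filter, and 1 with robust dispersions, with the replicate block, by the Wald test and by apeglm. For the interaction, 0 became 1 with no filter and 1 by the Wald test. In PMNs, IRI against sham surgery, 0 became 0 to 1 with 1 library left out, 2 with no filter and 3 by the Wald test. In the PMN control groups, 0 became 0 to 1 with 1 library left out, 1 by the Wald test and 1 by apeglm. For TECs against PMNs, 3 after sham surgery became 2 to 5 with 1 library left out, 8 with no filter and 8 by the Wald test, and 3 after IRI became 2 to 5, 5 and 5. For the surgery effect in TECs against PMNs, 0 became 1 with no filter and 1 by the Wald test. RIPC against control in sham TECs stayed at 0 in each alternative run. The causes were not tested. Size factors of DESeq2 moved the median log2 fold change of all genes by 0.13 in TECs, IRI against sham surgery, where 4 carriers were then called and all 9 still had negative values.

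Single carriers were followed in the TEC comparisons other than the interaction, and there signs turned only in RIPC against control. With 1 library left out, the median log2 fold change of the carriers ran across 0 in RIPC against control in sham TECs (-0.0786 to 0.3405), the TEC interaction (-0.0997 to 1.2465), RIPC against control in PMNs after sham surgery (-1.455 to 0.8206) and after IRI (-0.3051 to 0.5528), the PMN interaction (-0.9282 to 1.3065) and the surgery effect in TECs against PMNs (-1.9431 to 0.0649). With a minimum count of 50 the log2 fold change of Slc7a9 after sham surgery was -0.0036. With the replicate block those of Slc6a19 and Slc3a1 after IRI were -0.4367 and -0.1561. With 1 library left out, RIPC against control after sham surgery ran from -0.2388 to 0.3405 for Slc34a1, from -0.4953 to 0.0848 for Slc13a1, from -0.5189 to 0.1753 for Slc3a1, from -0.2837 to 0.2284 for Slc7a9. With 1 library left out, RIPC against control after IRI ran from -0.5202 to 1.3446 for Slc34a1, from -0.0621 to 1.3301 for Slc5a2, from -0.8469 to 1.0172 for Slc6a19, from -1.3736 to 1.3265 for Slc3a1. Within a cell type, deviations of same-numbered libraries from their group means correlated at -0.122 to 0.160 over 15 pairs of TECs. Over 13 pairs of PMNs they correlated at -0.0287 to 0.0536. With group means of 2 or 3 libraries, deviations within a group are tied to each other, so these values cannot exclude a pairing. Same-numbered TEC and PMN libraries were not compared. In PMNs, IRI against sham surgery, the block gave 23 genes called in place of 104. Few libraries per group and a common coefficient of biological variation of 1.54 in TECs and 1.65 in PMNs limit which differences could be detected.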
